A study of Mus musculus with 97 samples.

Results

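The leukocyte genes Cd99, Gimap4, Lat, Rgs19 and Ccl27a, were followed across cortex and hippocampus of older mice carrying human APOE3 or APOE4. They were selected by name from the 19962 genes measured, for their known part in leukocyte migration and signalling and on their ratio to the negative probe, with earlier results of these data known. All 5 were found in the count table. Their ratios to the negative probe are therefore given as a description.

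Expression was read with the GeoMx Digital Spatial Profiler, in which probes bound to RNA in a tissue section carry tags that ultraviolet light releases from a chosen region for sequencing. The 97 libraries were 49 regions of cortex and 48 of hippocampus from sections of 8 µm, 8 in each of 12 groups, except 9 in APOE3 DD cortex. Per week, DD gave 3 mg/kg of doxorubicin with 10 mg/kg of docetaxel, and DC gave 3 mg/kg of doxorubicin with 40 mg/kg of cyclophosphamide. Vehicle was dimethyl sulfoxide with phosphate buffered saline. All were injected into the peritoneum 2 times per week for 2 weeks in both genotypes, and the vehicle groups carried a human APOE knock-in allele like the treated ones. The study asked how the APOE allele and chemotherapy affect inflammatory, metabolic and neuroprotective genes.

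The labels tie no region to an animal, so regions of a shared animal make the p-values here too small, and the spread between libraries may be partly technical. All APOE3 libraries were on one collection plate and all APOE4 libraries on the other, with 0 genotypes on both, so genotype and plate cannot be told apart. Total counts ran from 21568 to 1850582 per library, with a median of 30579 in APOE3 and 61380 in APOE4. The negative probe, a set of probes with no target in the mouse, had a median of 1.27 in APOE3 and 2.68 in APOE4. It was 5 or more in 13 libraries, all of them APOE4: 4 of DC cortex, 6 of DC hippocampus, 2 of DD cortex and 1 of DD hippocampus. Most genes gave no more than the negative probe, with a median ratio of 0.936 in cortex and 0.912 in hippocampus. The lowest value in 94 of the 97 libraries was 1, the value of 41.7% of the genes in the median library.

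These genes act at different steps of leukocyte traffic and signalling. Cd99 is a surface glycoprotein through which leukocytes pass between endothelial cells, and it is also made by many cells that are not leukocytes. Ccl27a is a chemokine best known from the epidermis, where it draws T cells. Lat is the membrane adaptor on which the T cell receptor assembles its signalling complex. Gimap4 is a GTPase of lymphocytes. Rgs19 speeds the shut-off of inhibitory G alpha subunits, on which chemokine receptors signal. A healthy brain holds few lymphocytes, most of them in vessels, meninges and choroid plexus.

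In the RefSeq annotation of GRCm38.p6, the assembly behind the mm10 build that the submitters' processing notes name, all 5 were protein-coding. Gimap4 spans positions 48684578 to 48692062 of chromosome 6 on the plus strand. On the minus strand, Lat spans 126363827 to 126369705 of chromosome 7, overlapping Mir7058, and Rgs19 spans 181688419 to 181694537 of chromosome 2. Ccl27a spans 41769467 to 41774225 of chromosome 4 on the minus strand and overlaps Il11ra1. Its near-identical copy Ccl27b lies at 42650563 to 42656008 of the same chromosome. Whether the Ccl27a probe also binds Ccl27b RNA is not given in the sources used here, so its counts are uncertain in that respect; the row of Ccl27b itself had a median ratio of 0.876.

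Markers of leukocytes lay at background beside these genes. Of the T cell markers, 9 were in the table, with a median ratio of 0.947 and Cd2, a T cell adhesion receptor, highest at 1.23. The 5 markers of all leukocytes had a median ratio of 0.936, with Ptprc, the common leukocyte antigen CD45, at 0.832. The 6 B cell, 5 NK cell and 7 myeloid markers had medians of 0.918, 0.938 and 0.923, and the highest of them was S100a8, a neutrophil calcium-binding protein, at 1.46. Averaged within a library, the T cell markers lay between 0.829 and 1.81 times the negative probe, and those of all leukocytes between 0.654 and 1.79. No leukocyte marker had a median over 2 times the negative probe, so the leukocyte label was not borne out and the 5 genes are called by name here. Whether leukocytes below this limit add to the counts was not tested.

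Markers of the tissue were near background too. The 4 excitatory neuron markers had a median ratio of 1.21. The 4 cortex markers had a median of 0.900 and the 4 hippocampus markers of 0.930. The labelled regions could therefore not be checked by these defining genes. In bulk regions such as these, fewer cells of a type and less RNA per cell cannot be told apart.

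No gene of the 5 related pathway lists exceeded 2 times the negative probe, and none passed the low-count filter of any fit, so 0 of them could rise or fall by test. Among 25 genes of leukocyte adhesion and transmigration, Cdh5, the cadherin of endothelial junctions, was highest at 1.31, followed by Selp, a selectin on which leukocytes roll, at 1.22. Of 24 genes of T cell receptor and LAT signalling, the Src kinase Fyn had 1.33 and the receptor zeta chain Cd247 had 1.22. The 7 other GIMAP genes had a median of 0.922, with Gimap1 at 1.5 and Gimap6 at 0.977. Of 25 RGS and inhibitory G alpha genes, Rgs11 and Rgs20 had 1.07 each. Of 33 chemokines and their receptors, Cx3cl1, the neuronal chemokine fractalkine, had 1.12 and Cxcr4 had 1.08.

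**Figure D1:**
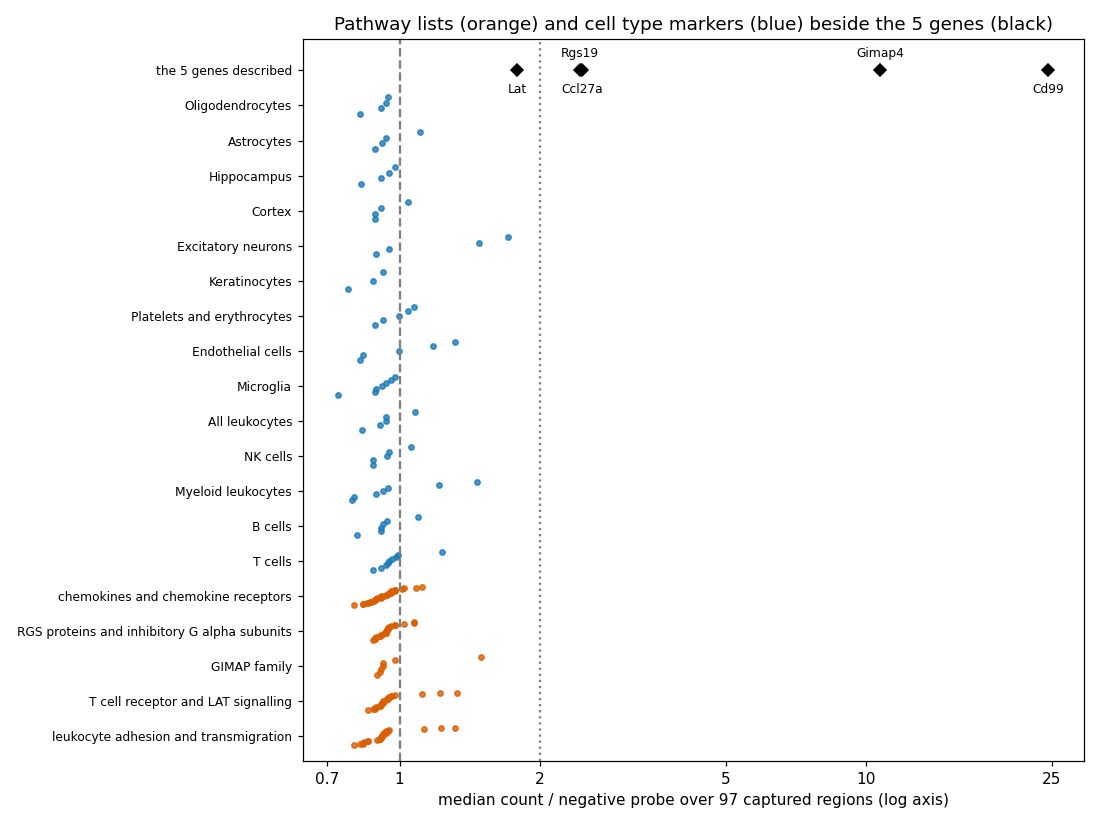
Median ratio of count to negative probe over the 97 captured regions, on a log axis, for each gene of the pathway lists (orange), of the cell type markers (blue) and for the 5 genes described (black diamonds). The dashed line marks 1 and the dotted line 2; every list and marker gene lies left of 2, while Cd99 lies at 24.5 and Gimap4 at 10.7.

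Cd99 had the clearest signal. Over all 97 libraries its ratio had a median of 24.5, ran from 1.58 to 135.6, and exceeded 2 in 95 libraries. No library had it at the value 1. The mean count was 79.1 per library.

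In cortex, Cd99 ran from 26.3 through a median of 63.9 to 98.9 times the negative probe in APOE3 vehicle. In APOE3 DD it ran from 21.0 through 58.05 to 135.6, and in APOE3 DC from 11.2 through 30.9 to 56.0. The DC libraries lay low, although their range overlapped that of vehicle. In APOE4 vehicle cortex the values were close together, from 40.6 through 44.3 to 53.9. They ran from 12.7 through 53.0 to 72.5 in APOE4 DD, and from 8.64 through 56.5 to 93.6 in APOE4 DC. The low libraries of the last 2 groups, 1 with DD and 2 with DC, had a high negative probe, up to 14.8 with DC.

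In hippocampus, Cd99 ran from 12.6 through 25.6 to 41.5 in APOE3 vehicle, from 8.90 through 17.6 to 24.8 in APOE3 DD and from 3.17 through 11.2 to 15.4 in APOE3 DC. In APOE4 it ran from 9.27 through 14.1 to 19.2 with vehicle and from 11.2 through 16.7 to 24.5 with DD. In APOE4 DC it ran from 1.58 through 3.32 to 22.2, where the median negative probe was 10.9 against 2.03 in vehicle. Ordered by median, the 6 cortex groups stood above the 6 hippocampus groups for Cd99. Each group overlapped the next one in that order, for Cd99 and for the other 4 genes alike. The only pair of groups compared below whose ratios did not overlap was APOE4 vehicle cortex and hippocampus, for Cd99. Overlap was not examined for the other genes measured, so this is a description only.

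Gimap4 had a median ratio of 10.7, from 0.704 to 37.2, over 2 in 86 libraries and at the value 1 in 3. In cortex the group medians were 11.9, 23.5 and 12.7 in APOE3 vehicle, DD and DC, and 14.4, 16.9 and 17.0 in APOE4. The lowest cortex library of each of these groups was 4.38, 5.74, 0.936, 0.704, 4.43 and 2.04, and the highest 29.5, 31.1, 19.1, 20.9, 32.2 and 37.2. All 6 cortex groups overlapped broadly. In hippocampus the medians were 7.95, 7.97 and 7.35 in APOE3 vehicle, DD and DC, and 8.25, 12.9 and 1.76 in APOE4. The hippocampus ranges were 1.58 to 15.4, 2.73 to 13.2 and 0.977 to 16.6 in APOE3, and 2.20 to 11.1, 6.73 to 20.7 and 1.42 to 13.6 in APOE4.

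Ccl27a, Rgs19 and Lat lay close to the negative probe. Ccl27a had a median ratio of 2.46 over all libraries, over 2 in 57 and at the value 1 in 14, of which 13 were hippocampus. Its cortex medians were 3.25, 4.32 and 4.40 in APOE3 vehicle, DD and DC and 3.09, 3.13 and 3.93 in APOE4. In hippocampus they were 2.08, 1.26 and 0.946 in APOE3 and 1.42, 1.87 and 1.20 in APOE4. Ccl27a thus exceeded 2 in 42 of 49 cortex libraries and in 15 of 48 hippocampus libraries.

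Rgs19 had a median ratio of 2.43 and was at the value 1 in 24 of 49 APOE3 libraries and in 0 of 48 APOE4 libraries. A value of 1 bounds the level from above only. In APOE3 cortex it ran from 0.876 through 0.931 to 5.90 with vehicle, from 0.821 through 2.43 to 4.14 with DD and from 0.558 through 0.942 to 1.46 with DC. In APOE4 cortex it ran from 2.78 through 6.35 to 8.34, from 2.11 through 5.5 to 9.75 and from 1.08 through 3.39 to 10.3. The APOE4 cortex libraries were mostly higher, with overlap in every treatment. In hippocampus the medians were 1.61, 1.34 and 0.946 in APOE3 vehicle, DD and DC and 2.95, 4.08 and 0.951 in APOE4.

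Lat had a median ratio of 1.78 and exceeded 2 in 41 libraries; it was at the value 1 in 22 of 49 APOE3 and 1 of 48 APOE4 libraries. Its cortex medians were 1.35, 3.13 and 1.53 in APOE3 vehicle, DD and DC and 3.62, 2.45 and 3.32 in APOE4. In hippocampus they were 0.883, 0.865 and 1.59 in APOE3 and 1.67, 1.94 and 1.27 in APOE4. Within APOE3 hippocampus Lat exceeded 2 in 6 of 24 libraries, so that most of its values there were not above background at this depth.

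**Figure D2:**
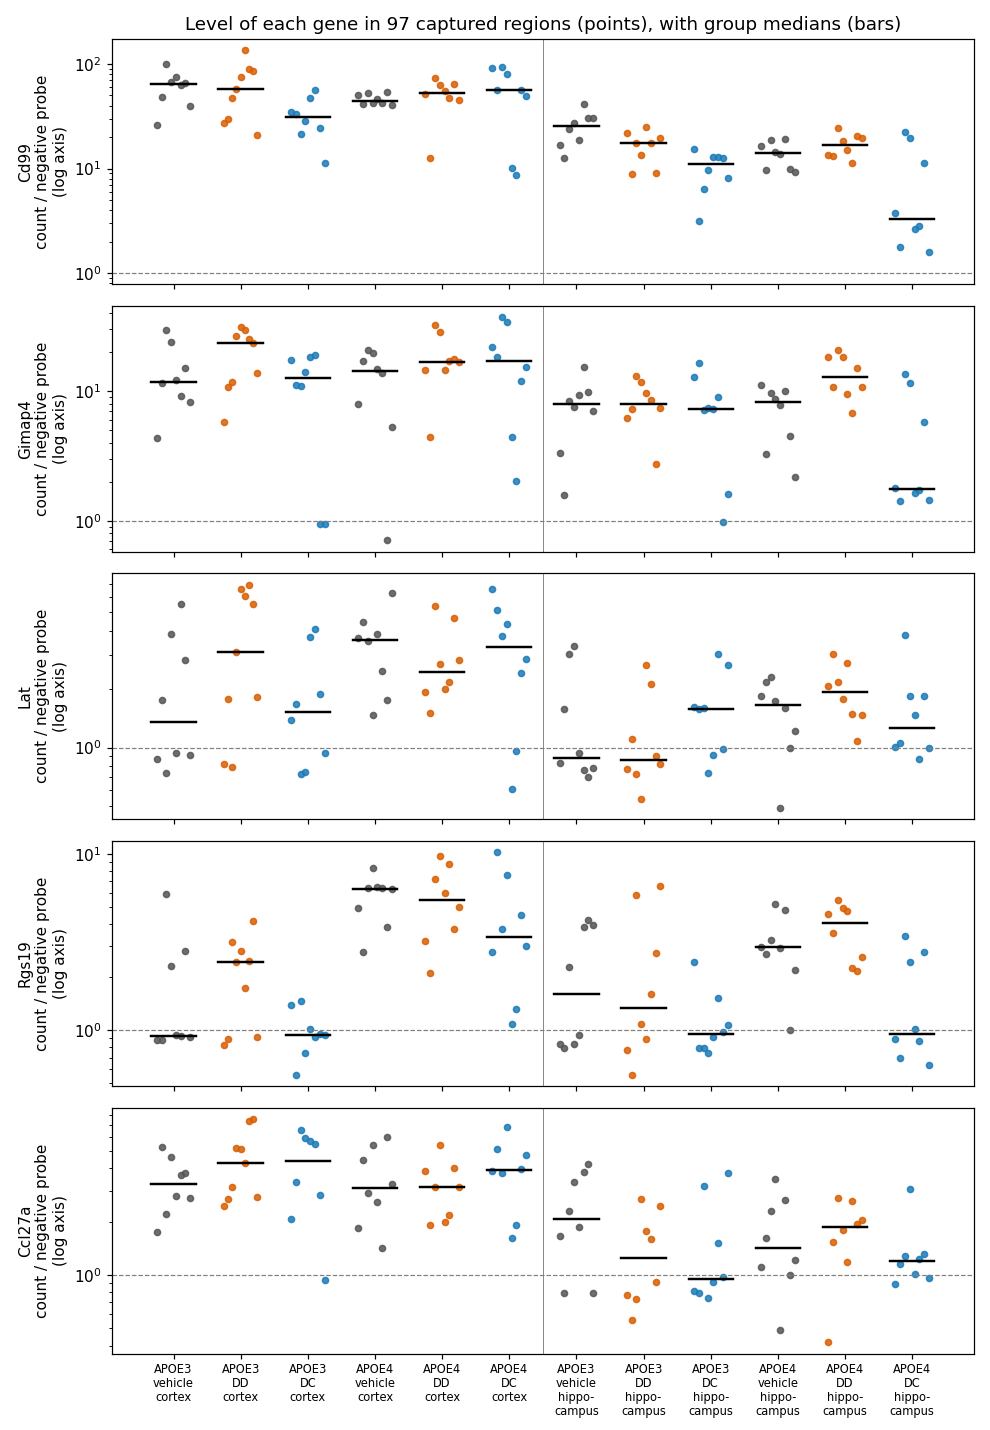
Count divided by the negative probe value, on a log axis, for each gene in every captured region (points), by genotype, treatment and region (vehicle grey, DD orange, DC blue), with the group median as a bar. The dashed line marks a ratio of 1; Cd99 and Gimap4 lie above it in nearly all libraries, while Lat, Rgs19 and Ccl27a reach it in most groups.

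Differences between groups were tested with edgeR's quasi-likelihood test, scaled to the genes that passed the low-count filter, with adjustment over all genes tested and a threshold of 0.05. All 5 genes were among the 57 tested in cortex. The filter asked for 8 libraries above its minimum. In cortex Rgs19 reached it in 1 of 25 APOE3 and 12 of 24 APOE4 libraries, so it entered the fit through APOE4; Lat reached it in 5 and 4, Ccl27a in 6 and 4. In the fit of both regions Rgs19 likewise had 2 APOE3 and 14 APOE4 libraries above it. For a gene let in by the group where it was high a difference is no support, so the Rgs19 differences are given without p-values. Only Cd99 and Gimap4 were among the 38 tested in hippocampus, and all but Lat were among the 58 in the fit of both regions. This scale is relative to the few genes tested. The median of all genes shifted on it by log2 -0.31 to 1.09, and by 0.94 in APOE4 DC against vehicle hippocampus. The cause of these shifts was not tested. On the log2 ratio to the negative probe the median of all genes stayed within -0.13 to 0.07. The median gene itself lay near the negative probe, so little movement was possible there. The ratio to the negative probe is what the genes were selected on, so differences on it are given as a description.

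Hippocampus and cortex were compared within each genotype and treatment to see where the genes were expressed. Library counts such as 8 of 8, here and below, are of hippocampus, chemotherapy or APOE4 libraries. They give those on the side of the change from the other group's mean log2 CPM, and the groups may still overlap. Cd99 was lower in hippocampus in all 6 comparisons. In APOE3 it fell by 0.64 (log2, SE 0.17, 8 of 8 libraries, edgeR adjusted p = 0.000874) with vehicle. It fell by 0.80 (SE 0.17, 7 of 8, edgeR adjusted p = 1.99e-05) with DD and by 0.56 (SE 0.20, 6 of 8, edgeR adjusted p = 0.0124) with DC. In APOE4 it fell by 1.01 (SE 0.16, edgeR adjusted p = 1.75e-07) with vehicle, by 0.97 (SE 0.16, edgeR adjusted p = 9.37e-08) with DD and by 1.38 (SE 0.16, edgeR adjusted p = 4.59e-13) with DC, in 8 of 8 libraries each. Cd99 thus lay 1.48 to 2.60-fold lower. In these comparisons 51.7%, 58.6% and 51.7% of tested genes passed in APOE3 and 56.9%, 62.1% and 62.1% in APOE4, so passing was common among the genes tested.

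These Cd99 calls rested on single libraries in 2 cases. Without APOE3 vehicle hippocampus 3 the difference with vehicle was -0.37 (edgeR adjusted p = 0.175), and without APOE3 DC hippocampus 2 the difference with DC was -0.46 (edgeR adjusted p = 0.0541). On the negative probe scale the differences ran from log2 -1.25 to -3.06. That ratio chose the gene, so these values are no further evidence. Without the low-count filter edgeR called the Cd99 difference in APOE4 vehicle and DC alone, and with runs of wells summed the calls in APOE3 vehicle and DC ended (-0.97 and -1.12). With values of 1 as 0 the call in APOE3 DC ended (-0.59).

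For Ccl27a the difference between the regions depended on the scale. Against the negative probe it was log2 -1.75 (SE 0.34) in APOE3 DD, -1.44 (SE 0.35) in APOE3 DC and -1.53 (SE 0.35) in APOE4 DC. Relative to the tested genes the same 3 differences were -0.53, -0.17 and 0.46, and none passed (edgeR adjusted p = 0.233, 0.767 and 0.0770). The direction in APOE4 DC thus turned with the scale. In the fits of single regions Ccl27a reached the filter minimum in 6 APOE3 and 4 APOE4 cortex libraries. In hippocampus it did so in 0 libraries of either genotype. Ccl27a may thus have entered the fit of both regions through cortex, so these differences are a description.

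Gimap4 did not pass in any of the 6 edgeR comparisons of the regions, with differences from log2 -0.39 to 0.52. Its ratio to the negative probe differed by -2.06 (SE 0.40) in APOE4 DC, where the negative probe itself was log2 1.43 higher in hippocampus. Lat was not in the fit of both regions, and its ratio to the negative probe differed by -1.41 (SE 0.35) in APOE3 DD.

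For Rgs19 the fitted differences of hippocampus from cortex relative to the tested genes were log2 0.80 (SE 0.43), 1.22 (SE 0.38) and 1.38 (SE 0.55) in APOE3 vehicle, DD and DC. These set values at the floor against each other: no APOE3 library had more than 8 counts, and with DC 4 of 8 cortex and 5 of 8 hippocampus libraries had the value 1, with median counts of 1.5 and 1. The median of all genes was higher in hippocampus by 0.52 with DD and 0.67 with DC on this scale. Against the negative probe the DD and DC differences were -0.13 and 0.16, so that the direction in DD turned. In APOE4 the Rgs19 differences between regions were -0.17, -0.09 and 0.33 with vehicle, DD and DC (SE 0.27, 0.24 and 0.23).

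Chemotherapy was compared with vehicle within each genotype and region. In cortex, 1 of the 5 genes changed in 1 of 4 comparisons: Cd99 fell by 0.56 (log2, SE 0.15, 8 of 8 libraries, edgeR adjusted p = 0.00530) with DC in APOE3. Here 12.3% of tested genes passed, against 3.51% with DD in APOE3, 12.3% with DD in APOE4 and 1.75% with DC in APOE4. Per 1000 counts of tested genes, Cd99 ran from 22.5 through 32.1 to 36.6 in APOE3 vehicle cortex and from 14.4 through 26.8 to 32.2 with DC. Of the DC libraries only the highest reached the vehicle median. The Cd99 call ended with runs of wells summed (-0.80, edgeR adjusted p = 0.214) and without the low-count filter (-0.72, edgeR adjusted p = 0.993). It also ended on the negative probe scale (-0.96, limma adjusted p = 0.985). Without the filter and on the negative probe scale, adjustment was over 19962 genes instead of 57. Relative to the tested genes, the Cd99 difference with DC in APOE4 cortex was 0.14 (interval of 2 SE each side, -0.13 to 0.41).

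The DC effect on Cd99 in cortex differed between the genotypes by log2 0.70 (SE 0.20, edgeR adjusted p = 0.0236), where 3.51% of tested genes passed. The interaction with DD in cortex and both in hippocampus passed for none of the genes tested among the 5, at 0%, 0% and 5.26% of tested genes. The Cd99 interaction kept its direction but lost its call under 6 of 8 alternatives. It was 0.55 with upper-quartile scaling, 0.95 with no filter, 0.82 on the negative probe scale, 1.01 with runs summed, 0.69 with the random block and 0.84 with values of 1 as 0, at adjusted p from 0.134 to 1.00 in edgeR and limma. It was also not called without APOE4 vehicle cortex 3, 4, 5, 6, 7 or 8, APOE3 vehicle cortex 1, 2 or 7, or APOE3 DC cortex 4 or 8. Leaving out any 1 of the 32 libraries gave 0.60 to 0.80, with adjusted p up to 0.177 in edgeR.

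In hippocampus, Gimap4 was 1.94-fold higher with DC in APOE3 (log2 0.96, SE 0.30, 6 of 8 libraries, edgeR adjusted p = 0.0168), where 21.1% of tested genes passed. The median count of Gimap4 was 9.5 in both groups, while the summed counts of the tested genes had medians of 962 with DC and 3038.5 with vehicle. On the negative probe scale the difference was -0.19, so its direction turned with the scale. Without APOE3 DC hippocampus 2, with 21 counts of Gimap4 and 4 of Cd99, it was 0.70 (edgeR adjusted p = 0.115). The call also ended with the random block (0.60), runs summed (0.56), no filter (0.01) and values of 1 as 0 (0.83). The part of the lower tested-gene counts in this result was not tested.

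The other hippocampus comparisons with vehicle gave no call for Cd99 or Gimap4 relative to the tested genes; 2.63% of them passed with DD in APOE3, 5.26% with DD in APOE4 and 21.1% with DC in APOE4. Gimap4 with DD in APOE4 missed the threshold at 0.69 (SE 0.24, higher in 8 of 8 libraries, edgeR adjusted p = 0.0534). In APOE4 cortex with DD it was 0.52 (SE 0.24, 8 of 8, edgeR adjusted p = 0.195). Its estimate against vehicle was above 0 in all 8 comparisons on this scale, which share 4 vehicle groups; against the negative probe it was below 0 with DC in APOE3 cortex and in both hippocampus DC comparisons.

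With DC in APOE4 hippocampus the 2 scales parted for Cd99. Its ratio to the negative probe differed from vehicle by log2 -1.43 (SE 0.35), while relative to the tested genes the difference was -0.00 (SE 0.17, edgeR adjusted p = 0.990). The negative probe was log2 2.37 higher with DC there. The part of that rise in the Cd99 ratio was not tested.

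Lat and Ccl27a gave no call with either regimen in cortex. Ccl27a with DC was 0.65 in APOE3 and 0.37 in APOE4 (SE 0.33 and 0.24, edgeR adjusted p = 0.170 and 0.299). Lat with DD was 0.57 in APOE3 and -0.21 in APOE4 (SE 0.36 and 0.26, edgeR adjusted p = 0.576 and 0.634). With DD the interval of 2 SE each side for Lat in APOE3 cortex ran from -0.15 to 1.29, which leaves room for changes in both directions. Rgs19 with DC was -0.74 in APOE3 and -0.44 in APOE4 cortex (SE 0.49 and 0.22).

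**Figure D3:**
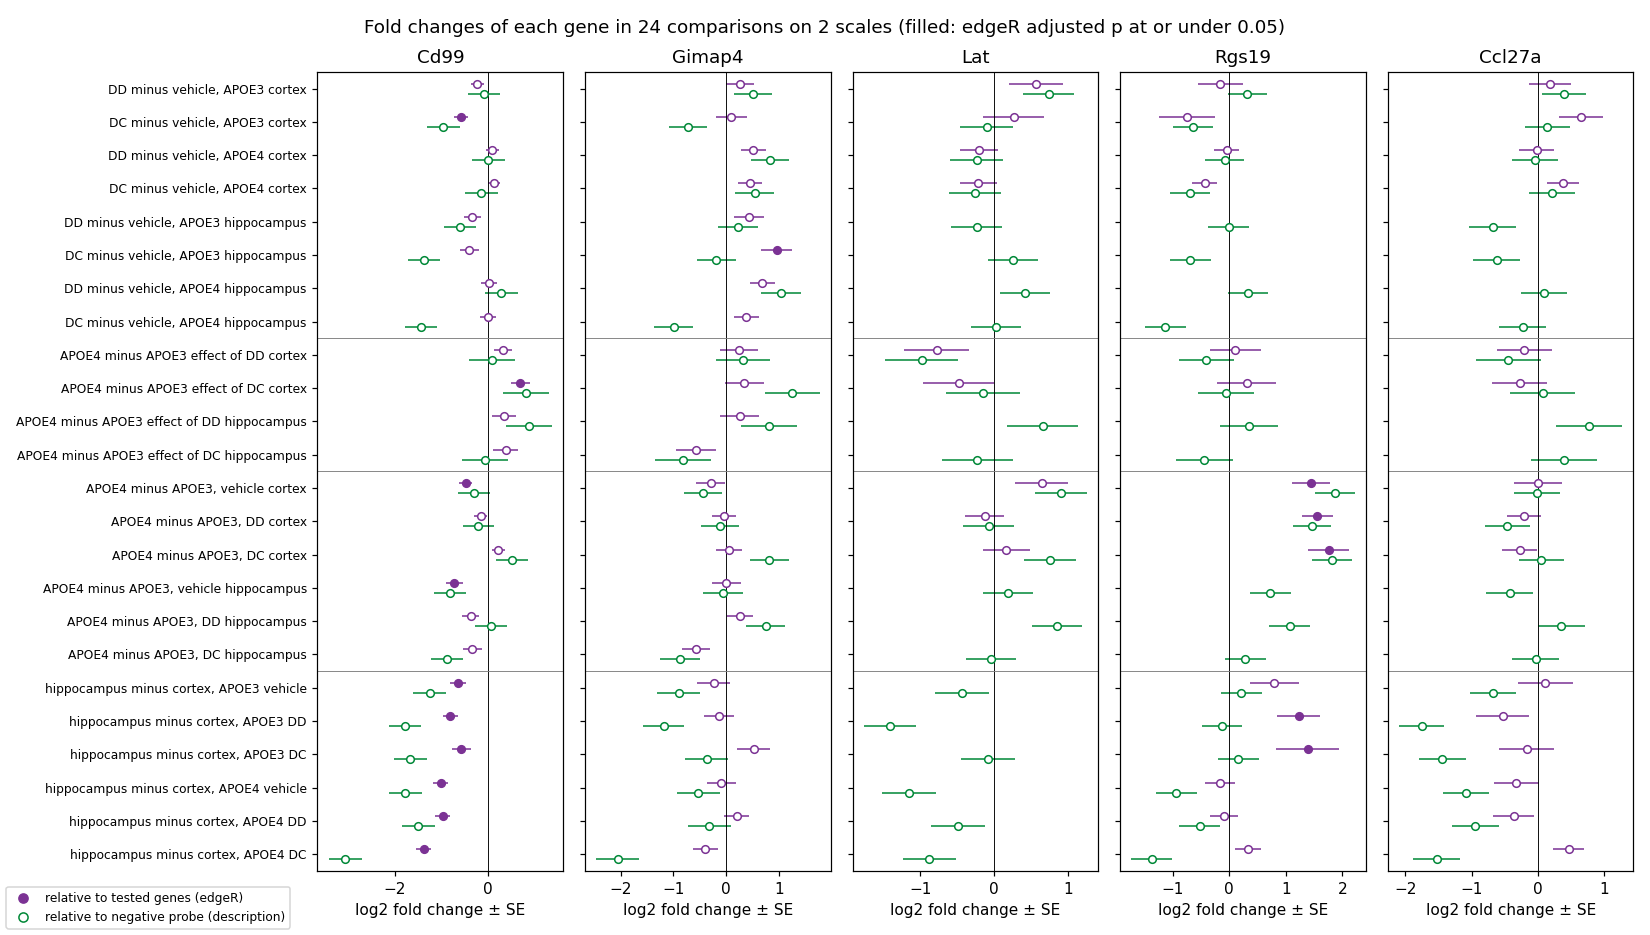
Log2 fold change with its standard error for each gene (panels) in 24 comparisons (rows), relative to the tested genes (purple, edgeR, filled at an adjusted p of 0.05 or less) and to the negative probe (green, as a description). Cd99 lies left of 0 in all 6 comparisons of hippocampus with cortex on both scales, and Rgs19 lies right of 0 in the 3 cortex comparisons of APOE4 with APOE3. Filled Rgs19 points are no support, because the gene entered the fits through APOE4.

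The genotypes were compared within each treatment. Rgs19 lay higher in APOE4 cortex, the group through which it entered the fit. Its fitted differences from APOE3 were log2 1.45 (SE 0.33) with vehicle, 1.55 (SE 0.27) with DD and 1.75 (SE 0.37) with DC, in 8 of 8 libraries each. In the cortex comparisons with vehicle, DD and DC 21.1%, 21.1% and 24.6% of tested genes passed in edgeR. Per 1000 counts of tested genes, Rgs19 ran from 0.396 through 0.738 to 1.91 in APOE3 vehicle cortex and from 1.52 through 3.36 to 4.24 in APOE4. With DD it ran from 0.539 through 0.922 to 2.46 and from 1.83 through 3.63 to 5.25, and with DC from 0.494 through 0.853 to 1.25 and from 1.10 through 2.80 to 4.85. The groups overlapped only at their edges.

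The Rgs19 ratio to the negative probe differed by 1.87, 1.46 and 1.81 with vehicle, DD and DC in the same cortex groups. Of the APOE3 cortex libraries 12 of 25 had the value 1, so the folds depend on how that floor is treated. APOE4 cortex libraries also had more counts, with tested-gene medians of 4592.5, 5177 and 5696.5 with vehicle, DD and DC against 2182, 4082 and 1733.5 in APOE3. The part of plate and depth in the difference was not tested. In hippocampus Rgs19 did not pass the filter, and its ratio to the negative probe differed by 0.72, 1.07 and 0.29.

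**Figure D4:**
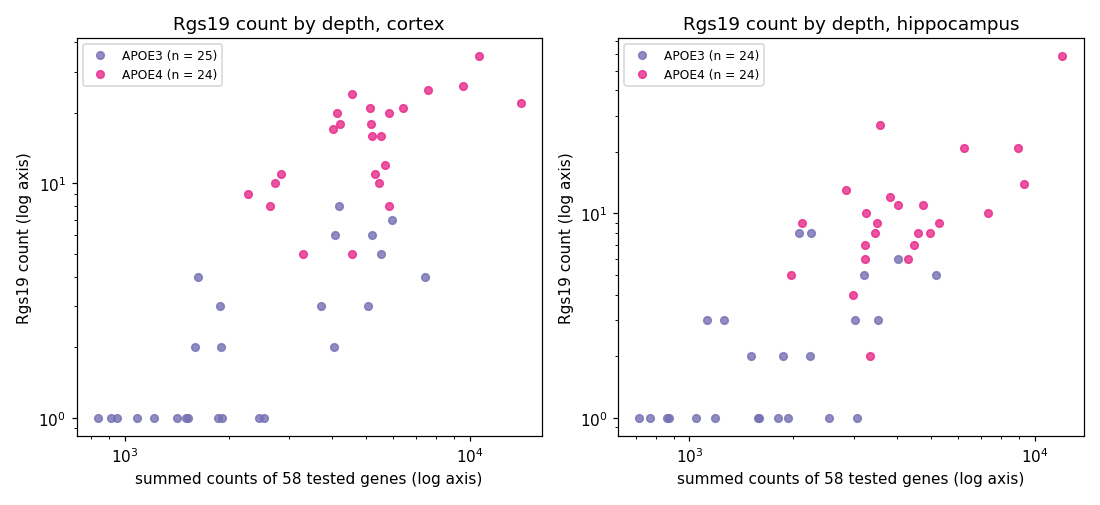
Rgs19 count against the summed counts of the 58 tested genes in each captured region, both on log axes, in cortex (left) and hippocampus (right), by genotype. In cortex 12 of the 25 APOE3 libraries lie at a count of 1, and the APOE4 libraries lie from 5 to 35 counts.

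Cd99 was lower in APOE4 than in APOE3 with vehicle, by 0.47 in cortex (log2, SE 0.14, 8 of 8 libraries, edgeR adjusted p = 0.0113) and by 0.72 in hippocampus (SE 0.18, 8 of 8, edgeR adjusted p = 0.00162). In hippocampus 39.5% of tested genes passed with vehicle, 7.89% with DD and 21.1% with DC. Cd99 did not pass with DD (-0.15 in cortex, -0.37 in hippocampus) or DC (0.23 and -0.33). Against the negative probe the vehicle differences were -0.29 and -0.82. Neither passed with adjustment over all 19962 genes (limma adjusted p = 0.901 and 0.445). No filter also ended both calls, at -0.06 and -0.82. The cortex call ended with the random block (-0.46, limma adjusted p = 0.0524), runs summed (-0.56) and values of 1 as 0 (-0.42), and the hippocampus call with upper-quartile scaling (-0.32).

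Gimap4, Lat and Ccl27a did not pass between the genotypes. In vehicle cortex Gimap4 was -0.29 (2 SE interval -0.84 to 0.26), Lat 0.65 (-0.06 to 1.36) and Ccl27a -0.00 (-0.73 to 0.72).

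Gimap4 relative to Cd99 within the same library does not depend on either scale. Per 100 Cd99 counts, the median of Gimap4 was 22.1, 28.5 and 36.5 in APOE3 vehicle, DD and DC cortex, and 32.4, 35.8 and 32.1 in APOE4. In hippocampus it was 29.9, 43.9 and 73.8 in APOE3, and 52.0, 76.8 and 61.2 in APOE4. The hippocampus medians were the higher ones in every genotype and treatment, and APOE3 DC hippocampus ran from 7.69 to 525.0. These ratios were not tested.

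**Figure D5:**
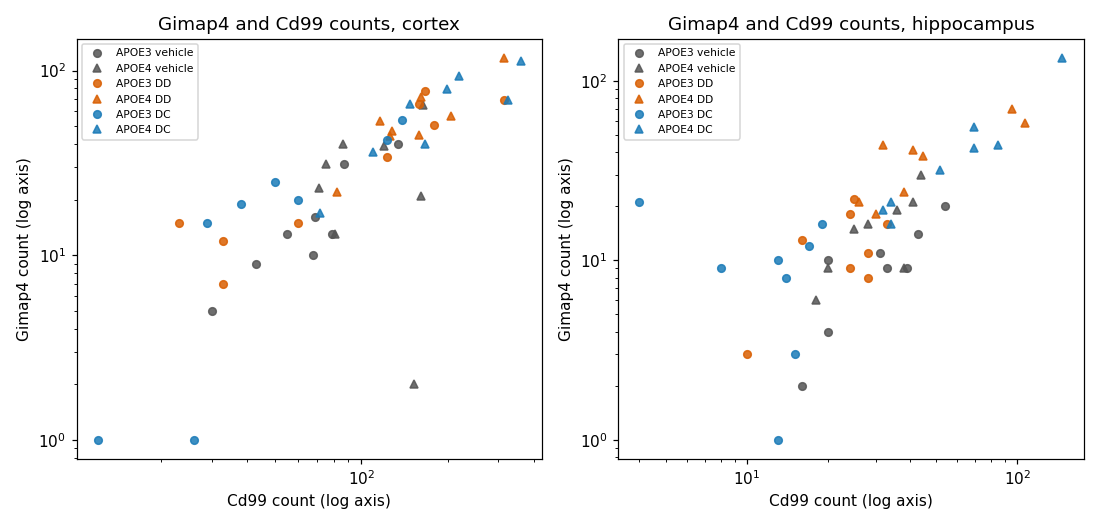
Gimap4 count against Cd99 count in each captured region, on log axes, in cortex (left) and hippocampus (right), by treatment (colour) and genotype (circles APOE3, triangles APOE4). One APOE4 vehicle cortex region lies apart with 2 counts of Gimap4 and 153 of Cd99, and one APOE3 DC hippocampus region with 21 and 4.

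The patterns of the 5 genes over the 12 groups were set beside those of 101 genes above 2 times the negative probe, by Pearson's r of group means of log2 CPM. Nearest to Cd99 was Fdx2, a mitochondrial ferredoxin, at 0.95, followed by Gm52523 and Gm10265 at 0.92 each. Nearest to Rgs19 were Hikeshi, a nuclear importer of Hsp70, at 0.89, Elof1 at 0.84 and Mplkip at 0.78. Nearest to Lat were Gm33049 at 0.90, Cmpk1, a pyrimidine nucleotide kinase, at 0.87 and Sncb, beta-synuclein, at 0.85. Ccl27a was nearest to Ptms at 0.87, the glycolytic enzyme Aldoa at 0.82 and 1520401A03Rik at 0.80. Gimap4 had no close neighbour: Olig2, a transcription factor of oligodendrocytes, was nearest at 0.46, then Fam177a at 0.45 and Ctxn1 at 0.40. Between pairs of the 5 genes r ran from -0.53, for Rgs19 and Ccl27a, to 0.42, for Lat and Ccl27a. The group means share libraries, depth and scaling, so these values are a description.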

How the data were processed

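The authors deposited an unscaled table of expected counts, 1 row per probe target; 4 rows, the negative probe and 3 genes, are not whole numbers. The sources used here do not give the counting software or filters; the build is mm10 per the submitters' processing notes. Values were rounded before modelling. All 97 columns were matched to libraries by title, and replicate numbers follow accession order. The genes, lists and tests were chosen with earlier results of these data known.

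edgeR 4.0.16 (R 4.3.3) was run with TMM over the tested genes, filterByExpr (minimum count 10), and quasi-likelihood F tests, adjusted by Benjamini-Hochberg within each fit, for cortex, hippocampus and all 12 groups. It was tested on simulated data. Log2 CPM used a prior count of 2. Alternatives were DESeq2 1.42.0, upper-quartile scaling, no filter, the log2 ratio to the negative probe (limma 3.58.1), runs of wells summed or as a random block, values of 1 set to 0, leaving out libraries with a negative probe of 5 or more, and leaving out each library. A run is neighbouring wells of 1 group: 49 runs, 48 of 2 libraries. Intervals are the estimate with 2 SE on each side. Named genes were all 5, their 3 nearest patterns, and the 2 highest genes of each list. Depth limits precision to counting error at best. No sequences are printed, because those of the probes were not used here.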

Additional observations from a re-analysis of the deposited data

Results flagged for a closer look

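Of 60 sets of libraries examined (5 genes in 12 groups), 5 held a library apart from the others; chance alone flags about 1 in 20 sets, and sets of 9 or fewer were judged by Dixon's ratio. In APOE4 DD cortex, library 2 was lowest for Cd99 at 12.7 times the negative probe, with the next at 44.9, and for Gimap4 at 4.43, with the next at 14.5. Its negative probe value of 9.93 was the highest of that group. In APOE4 vehicle cortex, Gimap4 was 0.704 in library 7, a count of 2, with the next at 5.30. In APOE4 DC hippocampus, Ccl27a was highest in library 4 at 3.06, a count of 5, with the next at 1.32. In APOE4 DD hippocampus, Ccl27a was lowest in library 1 at 0.417, a count of 1, with the next at 1.18. The effect of DC on Cd99 in cortex differed between the genotypes by log2 0.70 in the edgeR interaction test.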

How the results depend on the processing

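Of the 16 called differences, 3 of Rgs19 between genotypes and 2 between regions rest on its entry through APOE4. DESeq2 kept direction and call for 16, and omission of the high negative probe libraries for 15. That omission took libraries only from APOE4 DD and DC groups. Most called differences compare groups that lost none, so it says little about them. Upper-quartile scaling and the random block each kept 13, values of 1 as 0 kept 10 and summed runs 8. The negative probe scale kept 6 and no filter 2. The genes were selected on their ratio to the negative probe, so calls kept on that scale are no further evidence. Against vehicle 1.75% to 21.1% of tested genes passed per comparison in the main fit. Calls on the 5 genes against vehicle numbered 2 in that fit. They numbered 1 with no filter, the negative probe scale, the block and values of 1 as 0, and 0 with summed runs. With no filter and on the negative probe scale neither main call was kept, so the 1 call was of another comparison. On the negative probe scale it was Cd99 with DC in APOE4 hippocampus, where 23 of 19962 genes passed. Between genotypes 7.89% to 39.5% of tested genes passed per comparison in the main fit. Genotype calls on the 5 genes numbered 5 in that fit, 2 of Cd99 and 3 of Rgs19, and 0 with no filter. On the negative probe scale 2 were left, both of Rgs19, in vehicle and DC cortex, where 3 and 2 of 19962 genes passed. Neither Cd99 call was kept there. The Rgs19 calls are no support, because the gene was let in through APOE4 and selected on that ratio. A single interaction was called, of Cd99 with DC in cortex, where 3.51% of tested genes passed. The interaction calls went to 0 under all alternatives but DESeq2 and omission of high negative probe libraries. Between regions 51.7% to 62.1% of tested genes passed per comparison in the main fit. Region calls on the 5 genes numbered 8 in that fit and 5 with no filter. Of the 8, only those of Cd99 in APOE4 vehicle and DC were kept with no filter, so the rest of the 5 were other comparisons. The differences that reversed on the negative probe scale were Gimap4 with DC in APOE3 hippocampus (-0.19) and Rgs19 between regions in APOE3 DD (-0.13). With each library left out, the 4 counts ran from 2 to 4, 5 to 6, 0 to 1 and 7 to 11, and 6 of the 16 lost their call at least once; without APOE3 DC hippocampus 7 the calls against vehicle were 4. With no filter and on the negative probe scale adjustment was over all 19962 genes, and summed runs had fewer samples. The cause of lost calls was otherwise not tested. Shares over all genes are given here only for the main fit and the negative probe scale, so the other counts are a description. Levels against the median gene instead of the negative probe moved beyond the spread in 0 of 60 groups. The median gene itself lay near the negative probe, at 0.936 in cortex and 0.912 in hippocampus, so little movement was possible. No paired analysis was possible because the labels carry no replicate numbers and tie no region to an animal. Counts near 1 limit what Lat, Rgs19 and Ccl27a can show.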

Other observations

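In neighbouring wells of APOE3 DC cortex, libraries 7 and 8, had 1 count of Gimap4 each, beside 26 and 12 counts of Cd99. The neighbouring wells of APOE3 DC hippocampus, libraries 7 and 8, had 1 and 3 counts of Gimap4 with 13 and 15 of Cd99. The median of that group was 73.8 counts of Gimap4 per 100 of Cd99.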
